A study of Mus musculus with 85 samples.

Results

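Neural cells sorted from mouse embryonic brains were compared by RNA sequencing between embryos with a neural deletion of Kansl2 and Cre controls. The comparison holds 6 of the 85 samples of the series, all 6 columns of the authors' table for it. The knockout libraries are K2_345, K2_348 and K2_351 (labelled Kansl2 nKO, for neural knockout), and the control libraries are Cre183, Cre184 and Cre188 (labelled Cre control). Both groups were taken at E14.5, as were the whole-brain libraries and the neural Kansl3 nKO and Mof nKO libraries set beside them below. The control label names Cre without its driver, and the knockout label names the deletion alone. By the series' design text the deletion was driven by Nestin-Cre, a transgene active mainly in neural progenitors and therefore in the neurons and glia they make, and not expected in blood cells or microglia. The labels give no further alleles for either group. Cells were isolated by fluorescence-activated sorting and libraries were prepared with a TruSeq kit. The labels do not say that the 3 libraries of a group come from separate embryos, so p-values may measure only the spread between these samples.

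KANSL2 is a core subunit of the NSL complex (non-specific lethal), a chromatin assembly in which the acetyltransferase MOF, encoded by Kat8, works with KANSL1, KANSL2, KANSL3, MCRS1, PHF20, WDR5, HCFC1 and OGT. The complex sits at promoters of widely expressed genes, many of them for mitochondria, cilia and basic metabolism, and MOF is also the enzyme of the separate MSL complex. At mid-gestation the sorted population is a mixture of dividing radial glia, intermediate progenitors and young neurons. The p53 pathway and the integrated stress response, in which the transcription factor ATF4 raises amino acid synthesis and transport, are programmes that embryonic neural progenitors are known to switch on under stress.

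Kansl2 itself was not lower under its label. Its size-factor-normalized read count was 396, 401 and 470.5 in the Kansl2 nKO libraries, against 423, 382 and 387 in the Cre libraries. The same measure is used for every neural comparison with Cre. The groups overlapped, and the log2 difference of Kansl2 nKO minus Cre was 0.09 ± 0.09 (± standard error; limma adjusted p = 0.491). Reads summed over a gene do not show which exons were lost, so this value does not check the deletion, and every direction here rests on the labels. Kat8 was lower in each knockout library, at 203, 178 and 164 in the Kansl2 nKO libraries, against 284, 253 and 272 in the Cre libraries (-0.57 ± 0.11, adjusted p = 0.00083). Phf20, a reader subunit, rose by 0.33 ± 0.08 (adjusted p = 0.0033). Kansl1 rose by 0.29 ± 0.10 and Kansl3 by 0.22 ± 0.08, at adjusted p of 0.0233 and 0.0324. Kansl1 and Kansl3 depended on single libraries: without Cre183, Cre184 or Cre188, Phf20 was the only one of the 3 still past the threshold, Kansl1 also missed it without K2_351, and Kansl3 without K2_348. Mcrs1 was at -0.18 ± 0.07 (adjusted p = 0.0541), and Hcfc1, Wdr5 and Ogt were at 0.09, 0.10 and 0.05; these 4 did not pass. None of the 4 tested MSL genes passed: Msl1 was at 0.18 ± 0.07, Msl2 at 0.13 ± 0.08, Msl3 at -0.27 ± 0.11 and Msl3l2 at -0.32 ± 0.20. Of the other MYST acetyltransferase genes, Kat6b rose by 0.35 ± 0.08 (adjusted p = 0.00254) and the other three did not pass.

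Recovered reads per library ran from 5687012 to 12665665 in the Kansl2 nKO group and from 8827789 to 10616735 in the Cre group. The gene Rn18s-rs5, which takes ribosomal RNA reads, held 10.2% to 37.1% of reads in the Kansl2 nKO libraries and 15.4% to 28.7% in the Cre libraries. Of 13903 genes tested, 2796 were higher (20.1%) and 3068 lower (22.1%) in Kansl2 nKO cells, around a median log2 difference of 0.01. Falls were larger than rises: 645 of the genes that fell did so by at least 2-fold (21.0% of them), against 152 of those that rose (5.44%). The 2 groups did not overlap for 7235 of the 13903 genes, and for 5652 of the 5864 that passed. The authors' deposited table for these 6 libraries calls 2335 genes higher and 2484 lower of 14610 with an adjusted p. Library sex, read from Xist and Ddx3y, was female, female and male for Kansl2 nKO, and female, male and male for Cre.

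Markers checked the sort. All 15 pan-neuronal and all 16 radial glial markers were measured well above the filter, which keeps genes with a mean of at least 10. Microglial genes were near 0: 5 of 12 had no read in any library, none reached the filter, and their summed values were 3.60 to 11.98 in Kansl2 nKO and 0 to 5.05 in Cre libraries. Neutrophil and monocyte markers summed to 0 to 2.49 in Kansl2 nKO and 0 to 1.05 in Cre libraries, with 5 of 8 at 0 throughout. Endothelial markers summed to 54.1 to 70.7 in Kansl2 nKO and 44.0 to 50.6 in Cre libraries, and none of the 3 tested passed. Fibroblast markers summed to 24.0 to 50.3 in Kansl2 nKO and 21.2 to 23.6 in Cre libraries; the only one tested did not pass. Of pericyte genes Notch3, also used by progenitors, rose by 0.50 ± 0.11 and Pdgfrb was at -0.60 ± 0.24 (adjusted p of 0.00223 and 0.0499). Of choroid plexus genes only Otx2 was tested, and it rose by 0.74 ± 0.10 (adjusted p = 5.79e-05); it is also a gene of forebrain and midbrain neuroepithelium. Erythroid genes were present and higher: 7 of 10 rose and none fell (median 0.65), and they summed to 5387 to 8129 in Kansl2 nKO and 4287 to 5813 in Cre libraries. Embryonic Hbb-y was at 547, 593 and 409.6 in the Kansl2 nKO libraries, against 307, 243 and 269 in the Cre libraries (adjusted p = 4.77e-05). With all 12 neural libraries in 1 fit, 4 erythroid genes rose. The part of these red cell transcripts in the results below was not tested. In bulk RNA, fewer cells of a type and less RNA per cell cannot be told apart, which bears on every gene group below.

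Targets of p53 were higher, and one of them, Eda2r, had the highest fold among the 15 largest rises described below. Of 13 tested p53 targets of cell death 11 rose and 1 fell, against 20.1% higher and 22.1% lower of all genes, with a median log2 difference of 0.90. Eda2r, a death receptor of the tumour necrosis factor receptor family, was at 433, 377 and 423 in the Kansl2 nKO libraries, against 49.1, 40.02 and 45.5 in the Cre libraries. Every knockout library was several times above every control, at 3.17 ± 0.13 (adjusted p = 2.12e-10). Phlda3, an inhibitor of AKT, was at 231, 226 and 224 in the Kansl2 nKO libraries, against 43.2, 41.1 and 35.4 in the Cre libraries (2.48 ± 0.15, adjusted p = 1.32e-08). Aen, an apoptosis-enhancing nuclease, was at 804, 733 and 836 in the Kansl2 nKO libraries, against 296, 298 and 306 in the Cre libraries (1.39 ± 0.08). The BH3-only genes Pmaip1 (NOXA) and Bbc3 (PUMA) rose by 1.66 ± 0.26 and 1.32 ± 0.15, the death receptor Tnfrsf10b by 1.58 ± 0.36, the RNA-binding factor Zmat3 by 0.90 ± 0.11, the apoptosome scaffold Apaf1 by 0.62 ± 0.08 and Bax by 0.39 ± 0.10. The limma adjusted p of these 6 genes ran from 1.15e-05 to 0.00516. None of the 6 had overlapping groups, which also held for 5652 of all 5864 genes that passed.

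The exception in that list was Casp8, the initiator caspase downstream of death receptors. It had 2, 0 and 1 reads in K2_345, K2_348 and K2_351, against 20, 22 and 25 reads in Cre183, Cre184 and Cre188. Per normalized depth that is a ratio of 0.0533, with an exact 95% interval of 0.0107 to 0.162 that covers counting error only (adjusted p = 9.37e-05). Its mean lies just above the filter, and only through the Cre libraries, so it dropped out of the test whenever a Cre library was left out. In whole brain Casp8 did not pass, at 33.4, 24.8 and 43.7 in the Kansl2 nKO brains, against 29.6, 25.2 and 26.9 in the Cre brains (0.32 ± 0.26, edgeR adjusted p = 0.388). The neural difference minus the whole-brain one was -3.97 ± 0.60 (limma adjusted p = 0.00457), and it passed without each of the 12 libraries in turn.

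Among 18 p53 targets of arrest, repair and feedback 12 rose and none fell (median 0.38). Sesn2, which restrains mTORC1 when leucine is low, was at 584, 533 and 617 in the Kansl2 nKO libraries, against 99.6, 93.7 and 107 in the Cre libraries. That is 2.52 ± 0.11 on the log2 scale (adjusted p = 2.12e-10), while Sesn3 rose by 0.32 ± 0.08 and Sesn1 was at -0.14 ± 0.11 and did not pass. Cdkn1a, the p21 inhibitor of cyclin-dependent kinases, was at 71.9, 108 and 107 in the Kansl2 nKO libraries, against 11.0, 16.9 and 20.2 in the Cre libraries (2.52 ± 0.25, adjusted p = 3.86e-06). Ccng1, a cyclin-like feedback gene, was at 1152, 1128 and 1081 in the Kansl2 nKO libraries, against 317, 329.6 and 366.4 in the Cre libraries (1.73 ± 0.08). The feedback ligase gene Mdm2 moved little by comparison, at 0.34 ± 0.07 (adjusted p = 0.00155). Psrc1 and Gtse1, which act on the mitotic spindle and on p53 export, rose by 1.41 ± 0.10 and 1.17 ± 0.10.

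**Figure D1:**
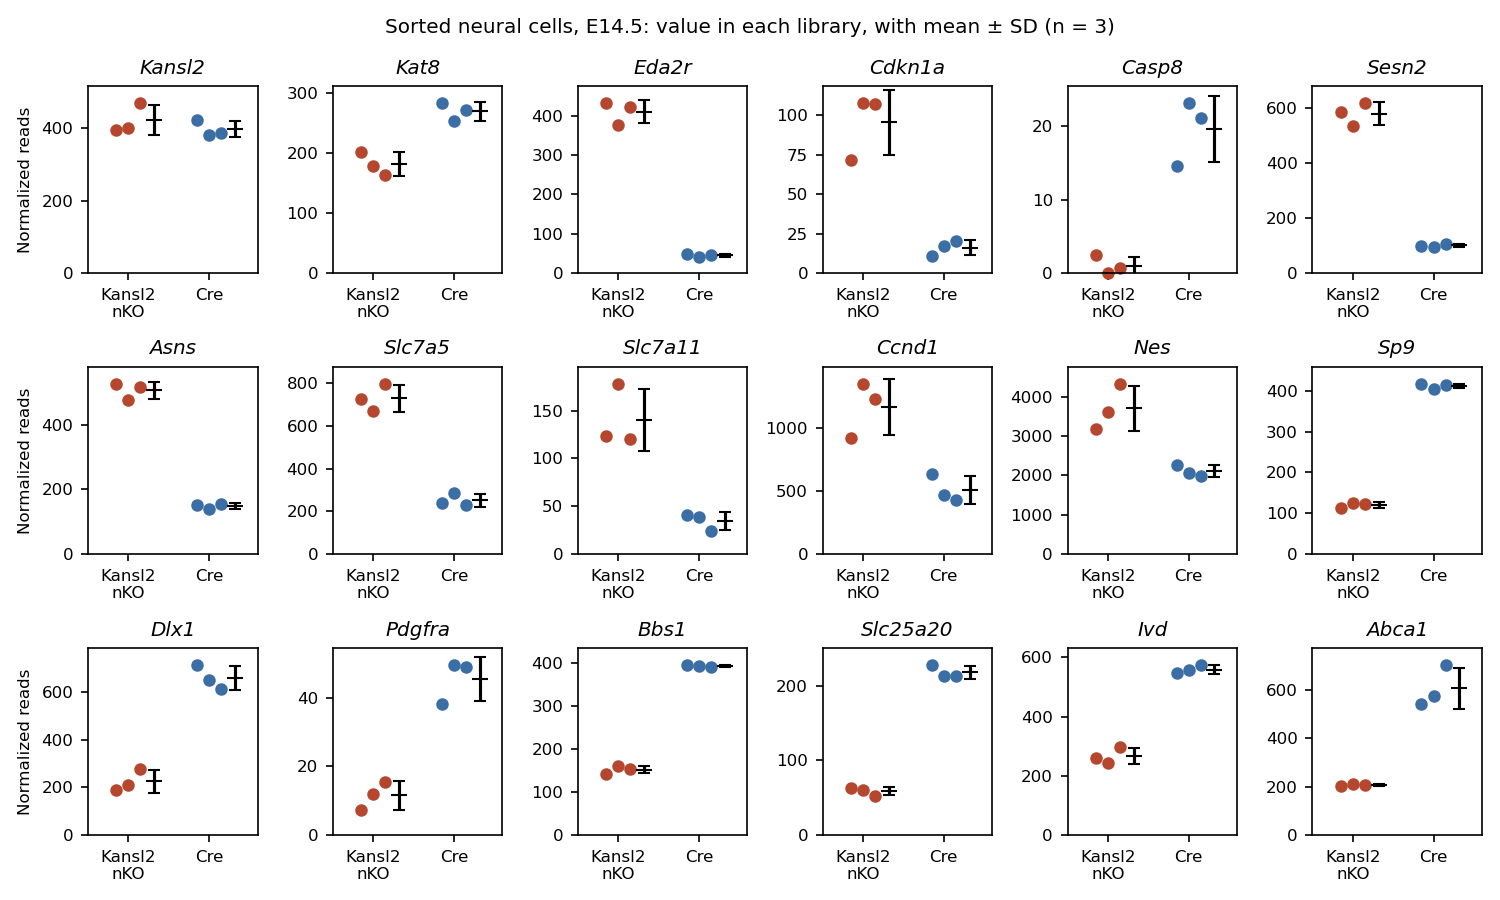
Size-factor-normalized read count (linear axis) of 18 genes in each library, with the 3 Kansl2 nKO libraries left of the 3 Cre libraries in every panel. Points are libraries, and bars are the mean ± SD (n = 3). Eda2r, Cdkn1a, Sesn2, Asns, Slc7a5 and Slc7a11 lie above the controls in every knockout library, Casp8, Sp9, Dlx1, Bbs1, Slc25a20, Ivd and Abca1 lie below them, and Kansl2 overlaps.

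The integrated stress response rose alongside, from its factor to its outputs. Of 13 tested response factors and effectors 10 rose and none fell (median 0.43). Atf4 was at 3184, 3307 and 3457 in the Kansl2 nKO libraries, against 2278, 2337 and 2275 in the Cre libraries (0.53 ± 0.06, adjusted p = 1.61e-05). Its partners Atf3 and Ddit3 (CHOP) rose by 1.21 ± 0.13 and 0.71 ± 0.13. Eif4ebp1, a brake on cap-dependent translation, rose by 2.17 ± 0.22 and the secreted glycoprotein gene Stc2 by 1.48 ± 0.22. Chac1, which degrades glutathione, was at 68.3, 129.8 and 118.7 in the Kansl2 nKO libraries, against 34.4, 26.3 and 28.6 in the Cre libraries (1.75 ± 0.23, adjusted p = 3.34e-05).

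Amino acid supply genes rose with them. Of 18 enzymes of serine, asparagine and one-carbon metabolism 11 rose and none fell (median 0.45). Asparagine synthetase, Asns, was at 526, 475 and 518 in the Kansl2 nKO libraries, against 153, 138 and 156 in the Cre libraries (1.76 ± 0.10, adjusted p = 1.27e-08). The serine pathway genes Psat1 and Phgdh rose by 0.84 ± 0.08 and 0.67 ± 0.09, and the mitochondrial folate enzyme Mthfd2 by 1.11 ± 0.12. Of 13 amino acid transporter genes 11 rose and none fell (median 0.94). Slc7a5, the large neutral amino acid transporter, was at 725, 671 and 797 in the Kansl2 nKO libraries, against 240.3, 285 and 229.9 in the Cre libraries (1.54 ± 0.10, adjusted p = 4.59e-08). Slc7a3, a cationic amino acid transporter, was at 87.5, 87.9 and 86.4 in the Kansl2 nKO libraries, against 6.59, 13.7 and 8.42 in the Cre libraries (3.12 ± 0.27). Slc7a11, the cystine transporter, was at 123, 178 and 119.95 in the Kansl2 nKO libraries, against 41.0, 39.0 and 23.6 in the Cre libraries (2.01 ± 0.22). For all 3 transporters the groups were far apart. Slc7a1, a second cationic transporter, and Slc1a4, which carries neutral amino acids, rose by 1.09 ± 0.11 and 1.05 ± 0.08.

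Promoter sequence bears on this group because ATF4 with C/EBP partners binds a composite element. The motif TGATGNAA, on either strand, was searched in RefSeq windows of GRCm38.p6 that run from 250 bases before to 50 bases after each gene start. It occurred in 4.51% of the genes of the whole promoter table and in 2.48% of the 9775 tested genes matched to it. It was found in 2.99% of the matched genes that rose, in 2.15% of those that fell and in 10.3% (9 of 87) of those that rose by at least 2-fold. Of the 32 genes that rose in the 3 stress and amino acid lists, 25 were matched and 6 held it (24.0%). Among all matched members of these lists, whether or not they rose, 6 of 17, 3 of 15 and 2 of 9 held it (35.3%, 20.0% and 22.2%). The share of the risers thus lay within the range of these 3 shares, below the first and above the other 2. The first, 35.3%, belongs to the stress response list and counts members that were not tested and so could not rise. Whether the risers held the motif more often than other members of their lists was not tested. The 5 windows below are shown because they belong to strong risers; capitals mark the motif, read on the strand of the gene, where TTGCATCA is the motif on the other strand. They lie at chr6:7693185-7693272 for Asns, chr3:50443613-50443719 for Slc7a11, chr11:20332670-20332757 for Slc1a4 and chr1:191183396-191183483 for Atf3, all 4 on the minus strand, and at chr2:119351009-119351096 on the plus strand for Chac1.
Asns: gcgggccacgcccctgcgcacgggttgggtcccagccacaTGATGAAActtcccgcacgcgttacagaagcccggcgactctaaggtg
Slc7a11: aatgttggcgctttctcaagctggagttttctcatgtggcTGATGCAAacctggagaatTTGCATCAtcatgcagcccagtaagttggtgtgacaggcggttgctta
Slc1a4: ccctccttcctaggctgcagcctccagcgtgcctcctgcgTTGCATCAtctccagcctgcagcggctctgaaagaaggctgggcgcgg
Atf3: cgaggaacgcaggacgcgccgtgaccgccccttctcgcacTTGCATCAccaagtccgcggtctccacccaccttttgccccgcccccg
Chac1: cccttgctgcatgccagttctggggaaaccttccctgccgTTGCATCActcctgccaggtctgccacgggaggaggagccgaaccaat
Slc7a11 holds the motif once on each strand. These are matches of letters, and binding at them was not measured in the files used here.

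Genes for tRNA synthetases moved both ways, and those for protein folding were mostly higher. Of 20 cytosolic tRNA synthetase genes 10 rose and 5 fell (median 0.14), against 20.1% higher and 22.1% lower of all genes. The share of synthetase genes that fell was thus near that of all genes. Cars and Vars rose by 0.62 ± 0.09 and 0.50 ± 0.08, while Qars, the glutaminyl enzyme, was at 179, 202 and 221 in the Kansl2 nKO libraries, against 412, 392 and 410.2 in the Cre libraries (-1.01 ± 0.10, adjusted p = 4.04e-06). Wars, Hars, Farsb and Kars fell by less, at -0.50, -0.48, -0.45 and -0.29. Of 18 genes of the unfolded protein response 11 rose and 2 fell (median 0.37). The endoplasmic reticulum chaperone Hspa5 (BiP) rose by 0.53 ± 0.07, Herpud1 by 0.58 ± 0.09 and the transcription factor gene Xbp1 by 0.56 ± 0.09. The sensor gene Atf6 was at -0.71 ± 0.11 (adjusted p = 0.000119), and Sel1l, of the degradation machinery, fell by 0.35.

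Cytosolic ribosomal protein genes rose nearly as a block, by modest amounts. Of 75 tested genes 71 rose and none fell, with a median of 0.36. Rplp0, of the ribosomal stalk, was at 9349, 9037 and 8820.3 in the Kansl2 nKO libraries, against 6129, 5850.2 and 6067 in the Cre libraries (0.59 ± 0.07, adjusted p = 7.47e-06). Rps2 was at 5186, 5248 and 5350.5 in the Kansl2 nKO libraries, against 3298, 3285 and 3058 in the Cre libraries (0.71 ± 0.06). Their summed values were 214953 to 240904 in Kansl2 nKO and 169229 to 181538 in Cre libraries, and the groups did not overlap. Many of these genes have processed pseudogenes that can take part of their reads. Among 13 small nucleolar RNA host genes, which share with ribosomal genes a terminal oligopyrimidine start, 8 rose and none fell; Snhg12 and Gas5 rose by 0.93 ± 0.11 and 0.87 ± 0.07.

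**Figure D2:**
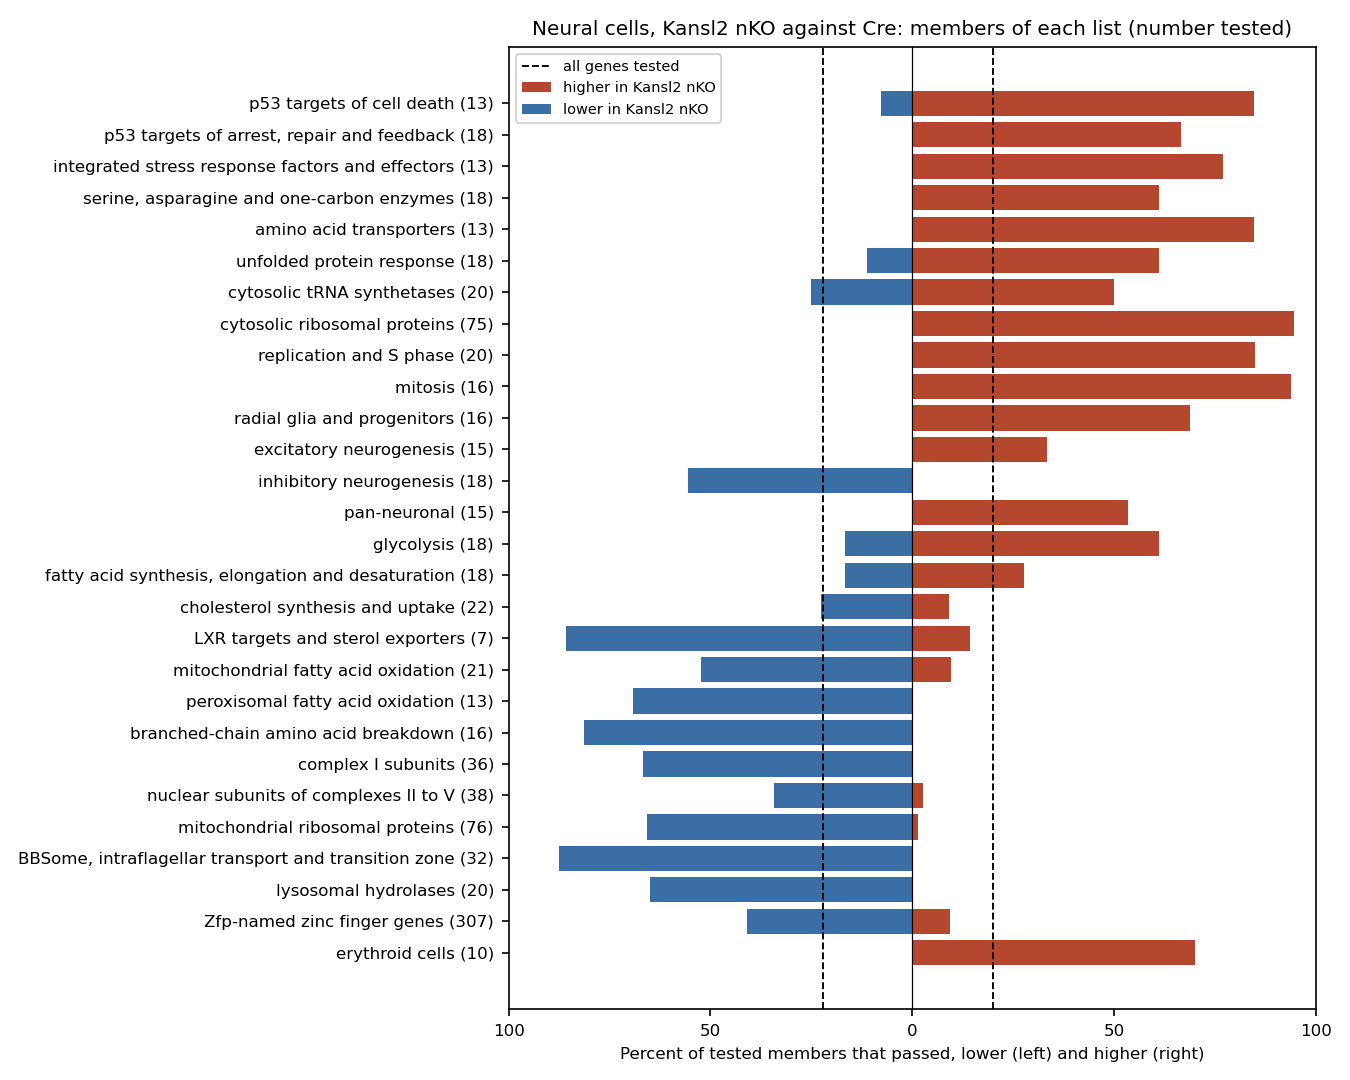
Share of tested members of 28 gene lists that were higher or lower in neural Kansl2 nKO than in Cre cells (limma, adjusted p under 0.05); the dashed lines mark the share of all genes tested, 20.1% higher and 22.1% lower. Lists of p53 targets, stress, amino acid supply, cell cycle and cytosolic ribosome lie on the higher side, and those of cilia, mitochondrial ribosome, complex I, branched-chain amino acid breakdown, lysosome and inhibitory neurogenesis on the lower side.

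Proliferation genes were higher, along with p21. Of 20 replication and S phase genes 17 rose and none fell (median 0.43), and of 16 mitotic genes 15 rose and none fell (median 0.48). Mcm5, of the replicative helicase, was at 1676, 1805 and 1552 in the Kansl2 nKO libraries, against 1141, 1048 and 1097 in the Cre libraries (0.61 ± 0.07, adjusted p = 1.56e-05). The replication licensing gene Cdt1 rose by 0.78 ± 0.10. Top2a, the topoisomerase of dividing cells, was at 7394, 8179 and 6771 in the Kansl2 nKO libraries, against 5162, 5049.8 and 4878 in the Cre libraries (0.56 ± 0.07), while Mki67 and the mitotic kinase gene Aurkb rose by 0.48 ± 0.07 and 0.69 ± 0.11. Of 11 genes of D cyclins and G1 control 7 rose and none fell; without K2_348, Cre184 or Cre188 the count was 4. Ccnd1 was at 924, 1354 and 1232 in the Kansl2 nKO libraries, against 639.5, 468 and 426 in the Cre libraries, with K2_345 the lowest knockout library and Cre183 the highest control (1.20 ± 0.14, adjusted p = 1.1e-05). Its partner kinase gene Cdk6 rose by 0.94 ± 0.11. Of the kinesin family, 14 of 33 tested genes rose, among them the mitotic motors Kif4, Kif15 and Kif11 (0.67, 0.54 and 0.47). Kif1b, Kif21a and Kif5c, motors of axonal transport, also rose (0.33, 0.25 and 0.18). The 4 that fell were the ciliary genes Kif7 and Kif3b (-0.79 and -0.47) and Kif13b and Kif16b (-0.47 and -0.55).

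Radial glial genes were higher too. Of 16 progenitor markers 11 rose and none fell (median 0.38). Nes, the intermediate filament nestin, was at 3165, 3612 and 4318 in the Kansl2 nKO libraries, against 2272, 2052 and 1983 in the Cre libraries (0.81 ± 0.09, adjusted p = 1.11e-05); the Cre transgene uses Nestin regulatory DNA, and the count reports the endogenous gene as annotated. Vim rose by 0.66 ± 0.08, Pax6 by 0.51 ± 0.08 and Sox2 by 0.22 ± 0.09 (adjusted p of 1.09e-05, 0.000174 and 0.0486). Of 15 pan-neuronal genes 8 rose and none fell (median 0.33), led by the neurofilament gene Nefl at 784, 859 and 608 in the Kansl2 nKO libraries, against 379, 339 and 345.3 in the Cre libraries (1.07 ± 0.11). Tubb3, Dcx and Map2 were at 0.15, 0.01 and 0.07 and did not pass. Of 15 genes of excitatory neurogenesis 5 rose and none fell, among them Neurog1 (0.84 ± 0.28) and Tbr1 (0.38 ± 0.13). That count was 2 without K2_351, 1 without Cre184 and 3 without Cre188.

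Inhibitory lineage genes went the other way. Of 18 markers of inhibitory neurogenesis none rose and 10 fell (median -0.57). Sp9, a transcription factor of the ganglionic eminences, was at 113, 126 and 124 in the Kansl2 nKO libraries, against 417, 405 and 414 in the Cre libraries (-1.76 ± 0.10, adjusted p = 1.32e-08). Dlx1 was at 188.2, 208 and 278 in the Kansl2 nKO libraries, against 712, 649.8 and 612 in the Cre libraries (-1.56 ± 0.12), and its neighbour Dlx2 at 58.7, 63.9 and 85.8 in the Kansl2 nKO libraries, against 238, 219 and 221 in the Cre libraries (-1.71 ± 0.15). For these 3 genes every knockout library was far below every control. Lhx6, of medial ganglionic eminence interneurons, and Gsx2, of lateral eminence progenitors, were at -1.56 ± 0.14 and -2.08 ± 0.35. The GABA-synthesising enzyme gene Gad2 was at -0.39 ± 0.08 (adjusted p = 0.00126), and Gad1 was at -0.21 ± 0.09 and did not pass (adjusted p = 0.0557). Dlx1as, the antisense transcript of Dlx1, fell with it (-1.96 ± 0.15); whether counting used strand is not given in the sources used here, so the pair may share reads. Without K2_345, 1 marker of the 18 rose.

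Oligodendrocyte lineage genes were lower as well: 3 of 6 tested fell and none rose. Pdgfra, the receptor of oligodendrocyte precursors, was at 7.19, 11.98 and 15.5 in the Kansl2 nKO libraries, against 38.1, 49.5 and 48.9 in the Cre libraries (-1.94 ± 0.30, adjusted p = 0.00012). Olig2 and Olig1 were at -1.14 ± 0.15 and -1.19 ± 0.27. Monoamine genes were mixed, with 5 of 10 tested higher and 1 lower. Slc18a2, the vesicular monoamine transporter, was at 107, 134 and 112 in the Kansl2 nKO libraries, against 274, 240.1 and 286 in the Cre libraries (-1.18 ± 0.13), while Nr4a2, Th, Foxa2 and Gata2 rose by 0.95 ± 0.11, 0.89 ± 0.20, 1.25 ± 0.43 and 0.91 ± 0.30. The number of monoamine genes that rose was 2 without K2_348, Cre184 or Cre188 and 3 without K2_351.

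Mitochondrial and peroxisomal fatty acid oxidation genes were mostly lower. Of 21 mitochondrial members 2 rose and 11 fell (median -0.28). Slc25a20, the carrier that brings acylcarnitines into the matrix, was at 63.5, 59.9 and 52.8 in the Kansl2 nKO libraries, against 228, 213 and 213 in the Cre libraries. All 3 knockout libraries were well under the controls, at -1.88 ± 0.14 (adjusted p = 1.82e-07). Cpt2 and Decr1 were at -1.19 ± 0.24 and -1.25 ± 0.21, and Acadvl, the very-long-chain dehydrogenase, at -0.71 ± 0.10. The 2 that rose were Eci1 (0.63 ± 0.14) and Cpt1c (0.25 ± 0.09), the neuronal member of its family. Only 1 member rose without K2_345, K2_351, Cre184 or Cre188. Of 13 tested peroxisomal members none rose and 9 fell (median -0.52). Acox3 was at 68.3, 53.9 and 62.8 in the Kansl2 nKO libraries, against 192, 169 and 179 in the Cre libraries (-1.53 ± 0.15), and Scp2 fell by 0.86 on the log2 scale. The Slc25a20 promoter carries CCGGAAG, a core of ETS-family sites and a letter pattern frequent in housekeeping promoters. The window is chr9:108662017-108662103 on the plus strand, with the motif in capitals.
Slc25a20: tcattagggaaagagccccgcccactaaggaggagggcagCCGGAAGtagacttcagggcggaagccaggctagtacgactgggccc
CCGGAAG, on either strand, lay in 9.93% of all promoter-table genes and in 19.8% of tested genes. It lay in 31.5% of genes that fell (734 of 2327 matched) and in 248 of 2071 that rose. Among genes that fell by at least 2-fold the share was 22.9% (111 of 485), among those that rose by at least 2-fold it was 1.15% (1 of 87), and of the largest named falls 1 of 11 matched held it.

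Lipid synthesis genes had members in both directions, with counts close to the 20.1% higher and 22.1% lower of all genes. Of 18 tested genes for fatty acid synthesis, elongation and desaturation 5 rose and 3 fell: Fasn and Acaca rose by 0.43 ± 0.08 and 0.39 ± 0.08, while Elovl1, Scd1 and the regulator gene Srebf1 were at -1.14 ± 0.33, -0.48 ± 0.18 and -0.39 ± 0.08. Without Cre188, 1 of them fell. Of 22 genes for cholesterol synthesis and uptake 2 rose, and 5 fell by 0.30 to 0.40 on the log2 scale; the count of falls was 1 to 3 when K2_345, K2_348 or any of the 3 Cre libraries was left out, and 1 rose without Cre188. Targets of the sterol receptor LXR and sterol exporters were mostly lower, with 6 of 7 tested down and 1 up. Abca1, the cholesterol exporter, was at 204, 212 and 208 in the Kansl2 nKO libraries, against 541, 572 and 702 in the Cre libraries (-1.53 ± 0.10, adjusted p = 6.93e-08). Nr1h2, which encodes LXR beta, was at -0.93 ± 0.13, Abcg1 at -0.68 ± 0.14 and Apoe at -0.48 ± 0.18. The member that rose, Mylip (0.68 ± 0.25), encodes a ubiquitin ligase, and it missed the threshold without K2_348, K2_351, Cre183 or Cre184.

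Branched-chain amino acid breakdown was lower as a group: of 16 genes none rose and 13 fell (median -0.65), and all 16 had negative log2 differences. Ivd, isovaleryl-CoA dehydrogenase, was at 261, 244 and 296 in the Kansl2 nKO libraries, against 546, 556 and 574 in the Cre libraries (-1.07 ± 0.09, adjusted p = 1.07e-06). Bckdha, of the branched-chain ketoacid dehydrogenase, and Mccc2, of leucine breakdown, were at -0.98 ± 0.11 and -1.08 ± 0.13. Slc7a5, which carries leucine into cells, rose, and these enzymes of its breakdown fell.

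Nuclear genes for the respiratory chain fell most in complex I. Of 36 subunits none rose and 24 fell (median -0.36). Ndufv1, of the NADH-binding arm, was at 527, 565 and 469 in the Kansl2 nKO libraries, against 958, 907 and 950.1 in the Cre libraries (-0.85 ± 0.08, adjusted p = 2.77e-06). Ndufs8 and Ndufs6 were at -0.99 ± 0.13 and -1.13 ± 0.21. Of 38 nuclear subunits of complexes II to V 1 rose and 13 fell (median -0.12); Uqcrc1 fell by 0.44 on the log2 scale and Atp5b rose by 0.21 ± 0.06. No subunit of complexes II to V rose without Cre184 or Cre188, and 4 did without K2_351. Of 13 transcripts of the mitochondrial genome 8 were tested, 2 rose (mt-Nd3 and mt-Nd1, at 1.13 ± 0.24 and 0.29 ± 0.08) and none fell. Mitochondrial ribosomal protein genes were lower as well: of 76 mitochondrial ribosomal protein genes 1 rose (0 to 2 in the alternatives) and 50 fell (median -0.48), with Mrpl11 at 215, 212 and 166 in the Kansl2 nKO libraries, against 428, 404 and 421 in the Cre libraries (-1.09 ± 0.11). Mitochondrial and cytosolic ribosome genes therefore had medians of opposite sign. Glycolysis was mostly higher, with 11 of 18 genes up and 3 down. Gapdh and Hk2 rose by 0.47 ± 0.07 and 0.57 ± 0.13, and the neuronal glucose transporter Slc2a3 and neuronal enolase Eno2 were at -0.71 ± 0.14 and -0.51 ± 0.16. Only 1 glycolytic gene fell without Cre183 or Cre184.

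Primary cilium genes fell almost without exception. Of 32 genes of the BBSome, intraflagellar transport and transition zone, the cargo and gate machinery of the cilium, 28 fell, none rose and all 32 had negative log2 differences (median -0.71). Bbs1 was at 143, 159.7 and 153 in the Kansl2 nKO libraries, against 395, 392 and 391 in the Cre libraries. The knockout libraries lay close together and far below the controls (-1.37 ± 0.10, adjusted p = 1.82e-07). Bbs9, also of the BBSome, was at -1.34 ± 0.14. Ift122 and Ift88, of the retrograde and anterograde transport particles, were at -1.01 ± 0.10 and -1.02 ± 0.12, Ift172 at -0.93 ± 0.11 and B9d1, of the transition zone, at -1.27 ± 0.17. The 28 falls were at least 25 in every alternative.

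Lysosomal hydrolases and zinc finger genes were lower too. Of 20 lysosomal genes none rose and 13 fell (median -0.51). Ctsf, cathepsin F, was at 89.9, 55.9 and 71.5 in the Kansl2 nKO libraries, against 174, 179 and 199 in the Cre libraries (-1.36 ± 0.16, adjusted p = 1.56e-05), and the cathepsin genes Ctsz, Ctsa and Ctsd were at -1.14 ± 0.18, -1.02 ± 0.11 and -0.50 ± 0.08. Of 307 tested genes named Zfp, 29 rose and 126 fell (median -0.23). Zfp772 was at 38.4, 24.0 and 26.1 in the Kansl2 nKO libraries, against 131, 104 and 112 in the Cre libraries (-1.96 ± 0.20). Zinc finger paralogues share long stretches of sequence, so reads of single members are uncertain. The number of Zfp genes that rose was 19 without K2_348, 16 without Cre183, 13 without Cre184 and 18 without Cre188.

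The 8 largest rises among well-measured genes with groups apart were Eda2r, Ano3, Cdkn1a, Sesn2, Phlda3, Slc7a11, Trim17 and Fam212b, of which Eda2r, Cdkn1a, Sesn2, Phlda3 and Slc7a11 belong to the lists above. Ano3, a calcium-regulated membrane protein of the anoctamin family, was at 126, 106 and 100.7 in the Kansl2 nKO libraries, against 19.8, 6.32 and 14.3 in the Cre libraries (3.07 ± 0.30, adjusted p = 3.28e-06). Fam212b was at 307, 304 and 307 in the Kansl2 nKO libraries, against 74.0, 88.5 and 79.2 in the Cre libraries (1.92 ± 0.12). Fst, follistatin, which binds activin, rose by 1.44 ± 0.16. The largest fall was Neb, nebulin, best known from muscle thin filaments, at 11.99, 20.0 and 12.4 in the Kansl2 nKO libraries, against 111, 131 and 152 in the Cre libraries (-3.09 ± 0.23, adjusted p = 2.12e-07). Next were the zinc finger gene Zfp85 (-2.16 ± 0.31) and the cytochrome P450 gene Cyp4f16 (-2.08 ± 0.18), and 5 of the 15 largest falls were Zfp genes. Acad11 (-1.94 ± 0.26), of long-chain acyl-CoA oxidation, Atp5sl (-1.93 ± 0.22), of complex I assembly, and Metap1d (-1.93 ± 0.15), the mitochondrial methionine aminopeptidase, were also among the 15. Metap1d was at 52.7, 73.9 and 54.1 in the Kansl2 nKO libraries, against 229, 239 and 222 in the Cre libraries. Dhrs1, a short-chain dehydrogenase, was at 68.3, 49.9 and 62.2 in the Kansl2 nKO libraries, against 230.03, 232 and 229 in the Cre libraries (-1.93 ± 0.14), and Camk1, a calcium-dependent kinase, at -1.81 ± 0.14.

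Whole brains of Kansl2 nKO embryos, with their own Cre brains, give an independent set of libraries for the same label. There 16290 genes were tested with edgeR, 1688 were higher (10.4%) and 2644 lower (16.2%); without Cre_16, 1014 were higher. Of 3026 genes lower in neural cells and tested in brain, 2013 were also lower (66.5%, against 19.1% of the genes tested in both) and 12 were higher. The 2013 genes were 78.9% of the 2550 that were lower in brain and also tested in neural cells. Of 2769 genes higher in neural cells, 811 were also higher in brain (29.3%, against 9.83% of the genes tested in both) and 5 lower. The 811 genes were 61.6% of the 1316 that were higher in brain and also tested in neural cells. Across 13382 genes, which are not independent replicates, Pearson's r of the log2 differences was 0.755. Cilium genes fell in both, 29 of 32 in brain. Bbs1 was at 167, 179 and 168 in the Kansl2 nKO brains, against 457, 481 and 467 in the Cre brains (-1.45 ± 0.10). These and the other whole-brain values per library are counts scaled by TMM. Of p53 targets of cell death 13 of 15 rose in brain, and of inhibitory markers 10 of 18 fell. Of 20 S phase genes none passed in brain (median -0.01), and of 16 mitotic genes 1 rose. No S phase gene passed the test of the difference between the tissues.

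**Figure D3:**
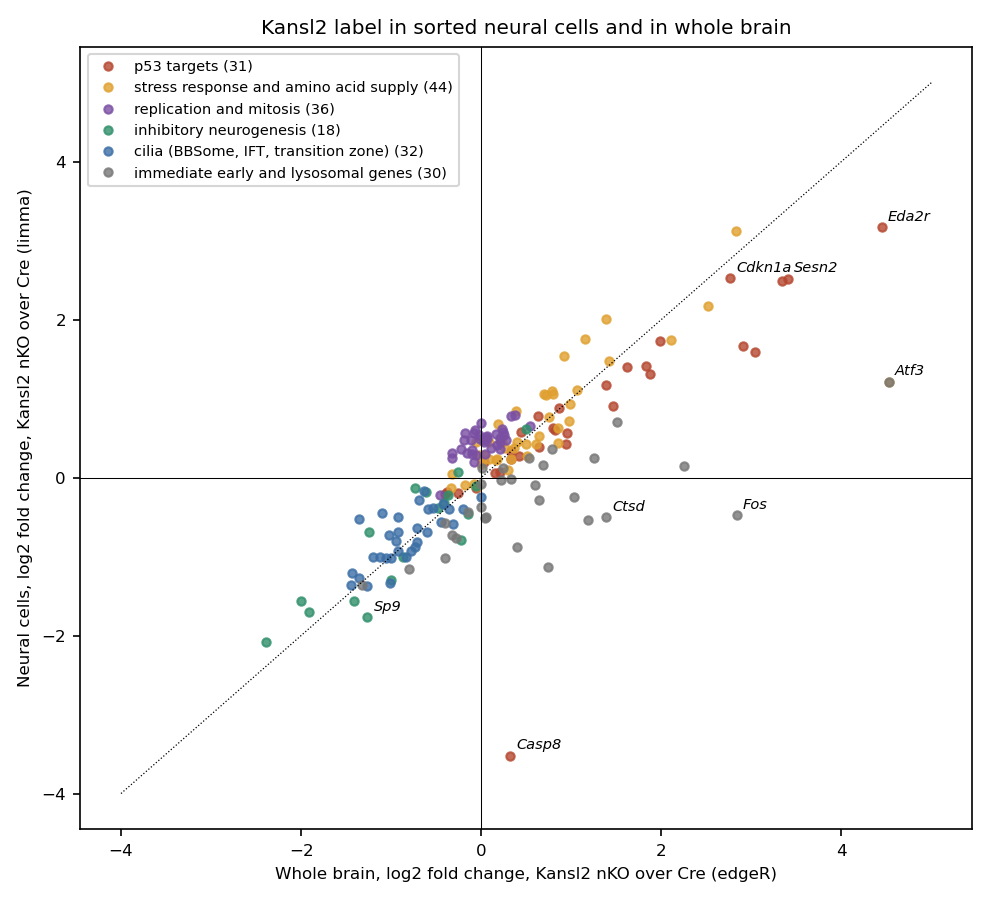
Log2 difference of Kansl2 nKO minus Cre in sorted neural cells (vertical axis, limma) against the same difference in whole brain (horizontal axis, edgeR) for members of 6 groups of lists; each point is a gene. Most cilium and inhibitory genes lie below 0 on both axes. Most replication and mitosis genes lie above 0 in neural cells, with medians near 0 in brain. Fos, Atf3 and Ctsd lie far to the right of the diagonal.

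A direct test of the difference in effect, neural minus whole brain, found 51 of 14791 genes (0.345%), 10 higher and 41 lower, and 1344 at an unadjusted p under 0.05. The counts depended on single libraries. Higher counts were 4 without K2_348, Cre183 or Cre188, or whole-brain Cre_16, 3 without Cre184, 6 without K2_351, 5 without whole-brain K2_70 or Cre_18, and 19 without whole-brain K2_63. Lower counts were 24 without Cre183, 21 without whole-brain K2_70, and 26 without Cre188, or whole-brain Cre_16 or Cre_19. Stress, activity and lysosomal genes were among those that did not depend on 1 library. Fos, the immediate early gene, was at 1104, 1304 and 1629 in the Kansl2 nKO libraries, against 1639, 1971 and 1970.2 in the Cre libraries (-0.48 ± 0.11, adjusted p = 0.00274). In whole brain it was at 39.3, 41.0 and 48.4 in the Kansl2 nKO brains, against 6.27, 7.31 and 3.84 in the Cre brains (2.84 ± 0.35), so the neural minus whole-brain difference was -3.18 ± 0.26 (adjusted p = 1.02e-05). Atf3 rose in both, with a larger fold in brain (-3.08 ± 0.45, limma adjusted p = 0.00353). It was at 49.0, 58.4 and 63.7 in the Kansl2 nKO brains, against 0.90, 4.87 and 0.96 in the Cre brains. That brain fold therefore rests on controls near the floor. In sorted cells Atf3 was at 180, 200 and 200 in the Kansl2 nKO libraries, against 86.4, 81.1 and 80.0 in the Cre libraries. Fos and Atf3 thus stood far higher in sorted than in brain controls, on separately scaled counts. The lysosomal protease gene Ctsd fell in neural cells and rose by 1.39 ± 0.12 in brain, a difference of -1.88 ± 0.15 (adjusted p = 7.89e-06). Ctsz, Grn, Apoe and Plin2 also fell in neural cells and rose in brain, with differences of -1.87 ± 0.25, -1.99 ± 0.27, -2.68 ± 0.26 and -1.99 ± 0.21. For Abca1, which fell in neural cells, the difference was -1.66 ± 0.19, and its brain value is not reported here. These 8 genes passed without each of the 12 libraries in turn. Microglial markers stand beside them: in brain 10 of 12 rose (median 2.30), while in the sorted cells none reached the filter, and their part in these differences was not tested. Of immediate early genes 7 of 10 rose in brain, against 3 higher and 1 lower of 12 in neural cells (5 and 2 without K2_345; 2 lower without K2_351).

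A smaller set was relatively higher in neural cells. Nes rose in neural cells and was at -0.10 ± 0.11 in brain (edgeR adjusted p = 0.529), a difference of 0.89 ± 0.17 (adjusted p = 0.0294) that passed in 4 of the 12 fits leaving out a library. Lrp2, an endocytic receptor of the neuroepithelium, and Fzd9, a Wnt receptor, differed by 1.04 ± 0.15 and 1.24 ± 0.21 and passed in all 12. Dct, dopachrome tautomerase, differed by 2.72 ± 0.48 and passed in 8. In neural cells Dct did not pass (-0.16 ± 0.19, limma adjusted p = 0.533), and in brain it was at -3.03 ± 0.43. That brain fall rests on values near the floor, 2.97, 3.73 and 10.6 in the Kansl2 nKO brains, against 52.8, 51.2 and 31.7 in the Cre brains. Of p53 targets, Sesn2 differed by -0.86 ± 0.17 (adjusted p = 0.0415): it rose by 3.40 ± 0.16 in brain, more than in neural cells, and passed in 2 of the 12 fits. Eda2r was at -1.28 ± 0.31 and did not pass (adjusted p = 0.12).

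Neural cells of the Kansl3 and Mof knockouts, 3 libraries each, were set directly against Kansl2 nKO on reads scaled over all 12 neural libraries. The Cre libraries they share are not part of the differences. They do enter the scaling, the filter and the common estimate of the spread, and so the standard errors and p-values. Kat8 averaged 184.4 ± 19.6 in Kansl2 nKO and 123 ± 12.3 in Kansl3 nKO cells (SD, n = 3), a log2 difference of 0.59 ± 0.12 (adjusted p = 0.00282). Against Mof nKO cells, which averaged 99.6 ± 9.23, it was 0.88 ± 0.12 (adjusted p = 0.00044). Kansl2 averaged 429 ± 42.6 in Kansl2 nKO and 538 ± 7.43 in Kansl3 nKO cells (-0.33 ± 0.08, adjusted p = 0.00804), and 473 ± 8.37 in Mof nKO cells (-0.14 ± 0.08, adjusted p = 0.301).

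Against Kansl3 nKO, 1994 of 13981 genes were higher (14.3%) and 1634 lower (11.7%) in Kansl2 nKO cells. Both counts fell by over 1.5-fold without K2_345 (1166 and 1014), K2_348 (1167 and 948), K3_349 (881 and 642) or K3_356 (1222 and 928). Nuclear genes of the respiratory chain and ribosomes stood higher in Kansl2 nKO. Of 36 complex I subunits 22 were higher and none lower (median 0.34; 7 to 27 higher when single libraries were left out), of complexes II to V 27 of 38 were higher and 1 lower, of mitochondrial ribosomal genes 36 of 76 were higher and of cytosolic ones 59 of 75 were higher and 1 lower. When single libraries were left out, 14 to 28, 18 to 41 and 38 to 67 members of these last 3 lists were higher. Transcripts of the mitochondrial genome were higher too, 5 of 8 (5 to 6 with single libraries left out). Among the largest rises of this contrast were non-coding RNA genes: Rny1, a Y RNA, averaged 142 ± 54.7 in Kansl2 nKO and 36.1 ± 7.24 in Kansl3 nKO cells (1.88 ± 0.28, adjusted p = 0.000581). Rny3, the mitochondrial ribosomal RNA genes mt-Rnr1 and mt-Rnr2, and Snora73b were higher by 1.44 ± 0.24, 1.41 ± 0.30, 1.22 ± 0.24 and 1.25 ± 0.27, with K2_351 the lowest knockout library for all 5. The share of reads in Rn18s-rs5 was 29.1%, 37.1% and 10.2% in K2_345, K2_348 and K2_351, against 10.7% to 12.3% in the Kansl3 nKO libraries. The part of this RNA composition in the contrast was not tested. Ndufv1 averaged 529 ± 49.2 in Kansl2 nKO and 335 ± 56.8 in Kansl3 nKO cells (0.67 ± 0.10, adjusted p = 0.000581). Of 20 S phase genes 14 were higher and none lower, with Ccne2 at 0.70 ± 0.12, and of 16 mitotic genes 10 were higher and 2 lower (8 to 15 and 8 to 10 higher with single libraries left out). Of 22 cholesterol genes 9 were higher and 1 lower (5 to 10 and 0 to 4). Of 12 p53 targets of cell death 6 were lower and none higher, Zmat3 by -1.17 ± 0.13 and Eda2r by -0.64 ± 0.13 (adjusted p of 5.59e-05 and 0.00202), both in all 6 fits that left out a library. Cdkn1a was at -0.87 ± 0.26 (adjusted p = 0.0184), in 4 of 6. Of 32 cilium genes 1 was higher and none lower, and Bbs1 averaged 154 ± 8.97 in Kansl2 nKO and 159 ± 5.70 in Kansl3 nKO cells (-0.05 ± 0.10). Erythroid genes were lower in 5 of 9 (1 to 5 with single libraries left out), and their part was not tested.

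**Figure D4:**
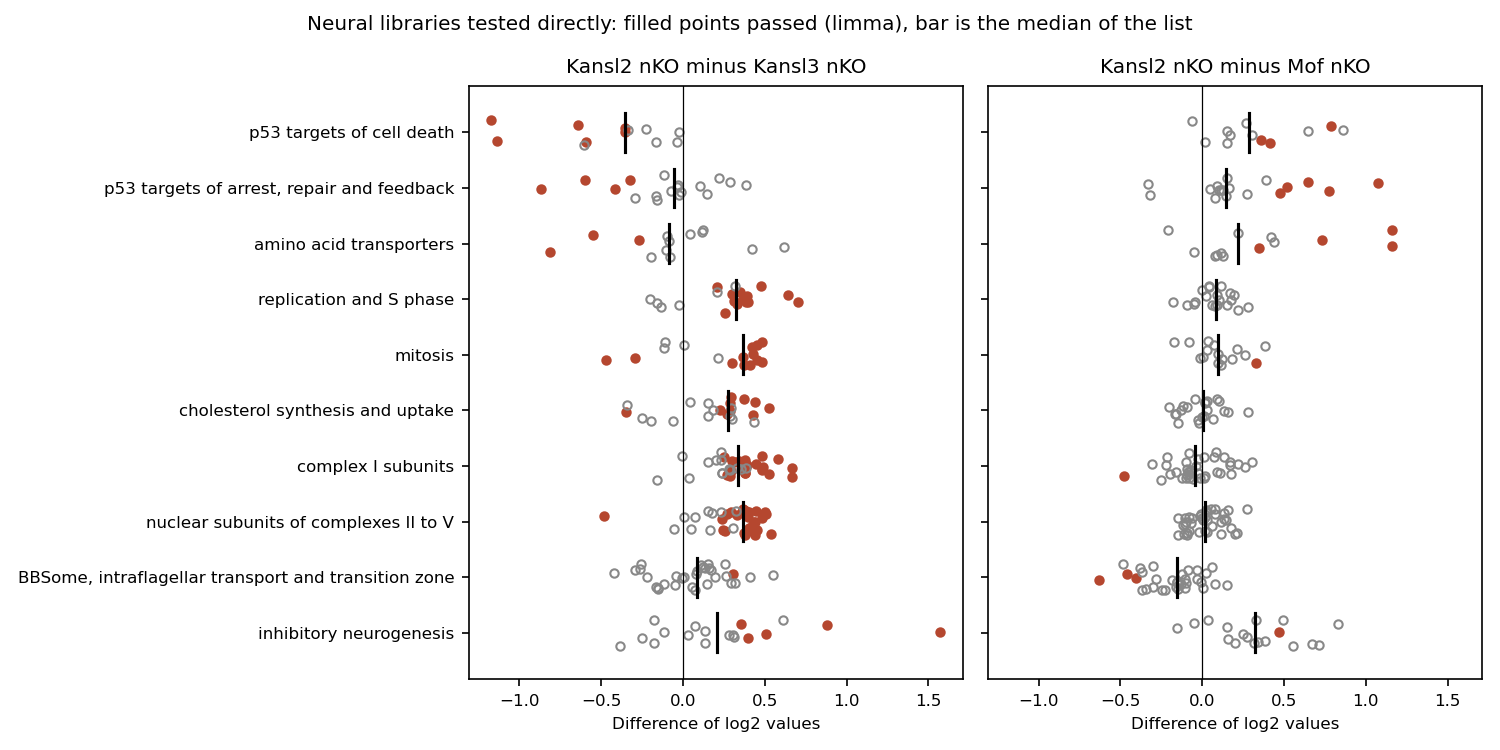
Log2 differences of neural Kansl2 nKO minus Kansl3 nKO (one panel) and minus Mof nKO (the other) for members of 10 lists; each point is a gene, filled where the adjusted p was under 0.05, and the bar is the list's median. Genes of complex I, complexes II to V and the cell cycle lie mostly above 0 against Kansl3 nKO and around 0 against Mof nKO. The medians of the p53 lists lie below 0 against Kansl3 nKO and above 0 against Mof nKO.

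Against Mof nKO fewer genes differed, with 4.21% of 13981 higher and 4.93% lower. Library sex read as male for all 3 Mof nKO libraries, against female, female and male for Kansl2 nKO. Neither contrast between knockouts was adjusted for sex. Rn18s-rs5 held 20.5% to 39.3% of reads in the Mof nKO libraries. The part of sex and of this share in the contrast was not tested. The counts were 272 and 360 without K2_348, 306 and 322 without M643, and 246 and 247 without M646. Stress genes were higher in Kansl2 nKO. Sesn2 averaged 587 ± 42.5 in Kansl2 nKO and 343 ± 39.2 in Mof nKO cells (0.78 ± 0.11, adjusted p = 0.000581). Ccng1, Phlda3, Atf3, Asns, Slc7a11 and Slc7a3 were higher by 0.65 ± 0.11, 0.79 ± 0.16, 1.01 ± 0.14, 0.63 ± 0.11, 1.16 ± 0.21 and 1.16 ± 0.24, each also in all 6 fits that left out a library. Cdkn1a was higher by 1.08 ± 0.26 (adjusted p = 0.0131), in 3 of 6. By list, 3 of 12 death targets, 5 of 18 arrest targets, 3 of 14 integrated stress response genes, 4 of 18 amino acid enzymes and 4 of 13 transporters were higher and none lower. With single libraries left out, these counts ran from 2 to 4, 2 to 5, 2 to 3, 2 to 4 and 2 to 6 higher. Some metabolic genes were lower in Kansl2 nKO: Slc25a20 averaged 59.7 ± 5.47 in Kansl2 nKO and 116 ± 25.8 in Mof nKO cells (-0.93 ± 0.17, adjusted p = 0.00256), and Acox3, Dhrs1 and Cyp4f16 differed by -1.06 ± 0.16, -1.03 ± 0.17 and -1.03 ± 0.20. None of 20 S phase genes differed, and of complex I 1 of 36 was lower. Bbs1 was lower by -0.46 ± 0.10 (adjusted p = 0.00694), with 3 of 32 cilium genes lower and none higher.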

How the data were processed

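The values are the authors' deposited signal: reads per gene over the library's size factor. STAR, featureCounts, DESeq2 and the build mm10 are named in the submitters' processing notes, without versions. Whole-brain tables hold read counts as deposited. Symbols came from the authors' deposited results table, which also holds log2 fold changes and, for 14610 genes, an adjusted p-value. Dividing by the value of 1 read gave whole reads for 100% of values in 18 columns (tolerance 0.01), so depth could be read. Among 12 within-group pairs none agreed within sampling noise.

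The main test was limma 3.58.1, with a trend, on log2(value + 1), keeping genes whose mean was 10 or more. That scale understates folds of low genes. P-values were adjusted by Benjamini-Hochberg over all genes tested, and "rose", "fell", "higher" and "lower" mark an adjusted p under 0.05. The 3 neural knockouts were contrasted directly, and neural with whole-brain effects by an interaction, on counts or recovered reads scaled together by median-of-ratios. Whole brain was tested with edgeR 4.0.16 (TMM, filterByExpr, quasi-likelihood, all 12 libraries). The same steps were tested on simulated data. Alternatives used edgeR and DESeq2 1.42.0 on recovered reads. R was 4.3.3 and Python 3.11.15.

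The comparison, gene lists and tests were chosen with earlier results of these data known. Named beyond the lists were the NSL and MSL genes and the 15 largest rises and falls among genes that passed, had a mean of at least 50 and groups apart, without sex-linked and predicted genes; list members and the genes of the contrasts were named for their role or size, some after their values were seen. Chromatin immunoprecipitation and the other sorted cells were not analysed here, and values of some list members are not reported here.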

Additional observations from a re-analysis of the deposited data

Results flagged for a closer look

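The effect of the Kansl2 deletion was tested for a difference between sorted neural cells and whole brain, and it differed for 51 genes. The counts without each library stand with the comparison above.

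Among p53 targets outside the death list, Sesn2 was flagged by the same test, with a neural minus whole-brain difference of -0.86 ± 0.17 (limma adjusted p = 0.0415). It rose in both tissues and was higher in 3 of 3 knockout libraries of each, more so in whole brain. Casp8, at -3.97 ± 0.60 (adjusted p = 0.00457), is the death-list member whose effect differed, on 3 reads in the neural knockout libraries.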

How the results depend on the processing

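Kansl2 nKO against Cre kept both counts within 1.5 times under every alternative, from 2018 to 2871 higher and from 2364 to 3233 lower; with sex as a covariate they were 2767 and 2970. Leaving out single libraries gave 2018 to 2825 higher and 2364 to 3050 lower, the lowest without Cre184. Scaling by TMM gave 2639 higher and 3179 lower. Of 645 values of 43 named genes under the alternatives, 626 kept direction and side of the threshold, 10 lost the call, 9 gained it and 0 changed direction. Of 1560 list counts, 1448 stayed within 1.5 times. With single libraries left out, the contrast with Kansl3 nKO gave 881 to 2389 higher and 642 to 1993 lower, and that with Mof nKO 246 to 564 higher and 247 to 664 lower. The neural minus whole-brain test gave 3 to 19 higher and 21 to 40 lower. By edgeR it gave 13 higher and 25 lower, with a pseudocount of 5 it gave 16 and 78, and with a filter on a mean of 50 it gave 7 and 26; the cause was not tested. Whole-brain counts ran from 1014 to 1796 higher and 1829 to 2454 lower with single libraries left out, an alternative chosen after seeing the data; the 6 libraries alone gave 1260 and 2272, and DESeq2 gave 1890 and 2474. No paired analysis was possible because the neural library names share no number between groups. With 3 libraries a group and 5687012 reads in the shallowest, genes of low counts such as Casp8 rest on few reads.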

Other observations

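Of 7 tested NF-kB genes 4 rose and none fell: Tnfaip3, the deubiquitinase that ends the response, was at 79.1, 83.9 and 111 in the Kansl2 nKO libraries, against 41.0, 45.3 and 41.3 in the Cre libraries (1.07 ± 0.18, limma adjusted p = 0.00029). The inhibitor gene Nfkbia and the subunit genes Nfkb2 and Relb rose by 0.81 ± 0.13, 0.83 ± 0.29 and 0.94 ± 0.22, while Rela and Nfkb1 were at -0.11 and -0.01 and did not pass. Of 5 tested interferon-stimulated genes 4 fell and none rose, with the transcription factor gene Stat2 at 57.5, 55.9 and 73.3 in the Kansl2 nKO libraries, against 91.6, 105 and 91.8 in the Cre libraries (-0.63 ± 0.17).

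Imprinted growth genes were mostly higher, 8 of 11 tested, with 1 lower. Plagl1, a zinc finger regulator of imprinted genes, was at 849, 948 and 975 in the Kansl2 nKO libraries, against 542, 460.2 and 507 in the Cre libraries (0.88 ± 0.09, adjusted p = 2.81e-06), and Grb10 and Dlk1 rose by 0.72 ± 0.08 and 0.89 ± 0.15. The long non-coding RNA H19 went against them, at 137, 146 and 129.9 in the Kansl2 nKO libraries, against 278, 271 and 307 in the Cre libraries (-1.05 ± 0.11, adjusted p = 5.65e-06). Without Cre184, 2 of the list fell.

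Of 10 tested NRF2 antioxidant genes 4 rose and 1 fell: Slc7a11, also an ATF4 target, Prdx1 (0.64 ± 0.08), Gclc (0.34 ± 0.09) and Txnrd1 (0.29 ± 0.07) rose, and G6pdx was at -0.52 ± 0.10. Of 10 hypoxia genes 3 rose and 2 fell, near the 20.1% higher and 22.1% lower of all genes. Vegfa rose by 0.44 ± 0.11 and Bnip3 was at -0.58 ± 0.12. Without Cre183 1 hypoxia gene fell, and without Cre184 1 rose. Among 7 tested neural signals to brain vessels only Vegfa, also in the hypoxia list, rose and only Wnt7a fell, below the shares of all genes. Wnt7a fell by 0.37 on the log2 scale and missed the threshold without K2_348, Cre184 or Cre188. Of 3 tested astroglial genes Gja1 and Slc1a2 rose by 0.73 ± 0.19 and 0.23 ± 0.07, and Aldh1l1 was at -0.68 ± 0.15; 1 of the first pair rose without K2_348 or any of the 3 Cre libraries.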
